A study of Mus musculus with 8 samples.

Results

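The SOCS family comprises 8 genes, Cish and Socs1 to Socs7, whose proteins limit the response of cells to cytokines. All 8 were found by symbol among the 56748 gene IDs counted in each library, and all 8 were among the 14942 genes with enough counts for testing. RNA-seq was performed on resting bone marrow-derived mast cells (BMMCs), which are mast cells obtained by culturing bone marrow of C57BL/6 mice aged 6 to 8 weeks for at least 4 weeks in the cytokine IL-3. Mice of both sexes were used for such cultures. In the Mettl3-RNP group, labelled by genotype as Mettl3 KO, 4 cultures had been electroporated with ribonucleoproteins (RNPs) of the Cas9 nuclease and guide RNAs that cut Mettl3, which encodes the enzyme that methylates adenosines of mRNA (m6A). In the Pulsed group, labelled Mettl3 WT, 4 cultures had received the electric pulse without an RNP, so this control carried no cutting Cas9. The edited cells were not selected, and the Mettl3-RNP cultures kept a share of cells in which Mettl3 had not been cut. Replicate numbers 1 to 4 occur in both groups, and libraries with the same number were compared as pairs.

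Cytokines such as IL-3 bind receptors that carry JAK kinases, and the activated kinases phosphorylate STAT transcription factors. STAT5 and STAT3 in turn switch on genes of the SOCS family, whose proteins act back on the receptor, so that the transcripts of Cish, Socs1, Socs2 and Socs3 are often read as a trace of cytokine signalling. Each SOCS protein holds an SH2 domain, which binds phosphorylated tyrosines, and a SOCS box, which joins elongins B and C and cullin 5 into a ubiquitin ligase. Socs1 and Socs3 also hold a short region that blocks the JAK kinase itself. Cish and Socs2 compete for STAT5 docking sites on receptors, while Socs4, Socs5, Socs6 and Socs7 have been studied mainly with receptor tyrosine kinases and insulin signalling.

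The letters TTCNNNGAA, to which dimers of STAT5 and other STATs bind, are a palindrome and read the same on both strands. They were searched in the 300 bases from 250 upstream to 50 downstream of each gene start given by RefSeq. The RefSeq table (GRCm38.p6) held windows for 4 of the 8 members, Cish, Socs1, Socs3 and Socs4, and each was found letter for letter in GRCm39, whose coordinates are given. The stretches around the matches are shown because Cish and Socs3 were the members of this set with any match, with the motif in capitals and 5 bases on each side.
Cish, chr9:107173853-107173882, plus strand: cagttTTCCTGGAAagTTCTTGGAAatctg
Socs3, chr11:117860333-117860351, minus strand: cagccTTCTTAGAAgggag
The Cish window held 2 motifs, the first beginning at the RefSeq start and the second 11 bases after it. The single Socs3 motif began 154 bases upstream of the start, and the windows of Socs1 and Socs4 held 0. Of 32851 windows of this length in the table, 8.30% held at least 1 motif and 0.457% at least 2. A match is a string of letters and no measurement of binding.

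The targeted gene was examined first. Mettl3 was at 12.3, 9.18, 4.88 and 9.21 CPM (counts per 1000000 on scaled library sizes) in Mettl3-RNP 1 to 4 and at 25.9, 24.5, 11.2 and 26.5 CPM in Pulsed 1 to 4. All 4 pairs were lower in Mettl3-RNP cells (fitted log2 ratio -1.30, SE 0.109, adjusted p 0.00543, edgeR), although Pulsed 3 lay below Mettl3-RNP 1, so the groups overlapped. Of the merged exons of Mettl3, 34.1% lie over exons of the gene Tox4 on the opposite strand, so without strand its reads cannot be fully told apart from those of Tox4. Libraries held 32643260 to 45324826 counts. Of the mast cell markers, 13 had an ID in the tables, and they summed to 48243 to 64098 CPM in Mettl3-RNP and 52370 to 70307 CPM in Pulsed libraries. Neutrophil markers summed to at most 0.373 CPM, with 5 of 8 at 0 counts in all libraries. T and NK cell markers reached at most 2.87, B cell markers 21.2 and macrophage markers 36.4 CPM. Basophil markers summed to 1795 to 2420 CPM in Mettl3-RNP and 2244 to 3323 CPM in Pulsed libraries, and erythroid and megakaryocyte markers to 1756 to 2123 and 1602 to 1866 CPM. Among all these markers, Cpa3 of the mast cell list, Il18rap and Ifitm1 of the basophil list and Adgre1 of the macrophage list were lower in Mettl3-RNP cells past the threshold. Others of these lists had estimates of the opposite sign without passing, such as Cd68, most of the macrophage sum in Mettl3-RNP cells, at 16.7 ± 11.3 and 4.497 ± 1.62 CPM in Mettl3-RNP and Pulsed cells (log2 fold change 1.63, adjusted p 0.142) and the basophil marker Cd200r3 at 688 ± 134 and 572 ± 58.1 CPM (0.25, adjusted p 0.151, higher in 4 of 4 pairs). The part of these differences in the values below was not tested, and in bulk RNA fewer cells of a type and less RNA per cell cannot be told apart.

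To ask whether the cytokine brakes change when Mettl3 is depleted at rest, the 8 members were compared between the groups. None passed an adjusted p of 0.05 in the quasi-likelihood test of edgeR with the pair as a block, where 3.74% of all tested genes did. The fitted level was nevertheless higher in Mettl3-RNP cells for 7 of 8 members, with a median log2 fold change of 0.19, while 49.8% of all tested genes were fitted higher and their median was -0.0013. At an unadjusted p of 0.05, 4 members, Socs6, Socs4, Cish and Socs2, were higher and 0 were lower, against 11.8% of tested genes that were higher. The same 4 were higher in 4 of 4 pairs, a pattern shared by 15.7% of tested genes. In no member were the 4 Mettl3-RNP libraries all above or all below the 4 Pulsed libraries, which was the case for 3.23% of tested genes. Both counts of higher members lie above their share among all genes, but the fold changes were small. The 95% intervals of 7 members ended below a fold of 1.5, and Socs3 was the exception.

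The call depended on the tool. In the DESeq2 Wald test with the same block 1 member, Socs6, passed as higher, against 5.94% of tested genes. When the replicate number was removed from log values with removeBatchEffect before limma-trend, 4 members passed as higher, against 15.2% of tested genes. That function is named in the study's methods, which do not name the batch, and it takes differences between replicates out of the values without counting them as estimated.

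**Figure D1:**
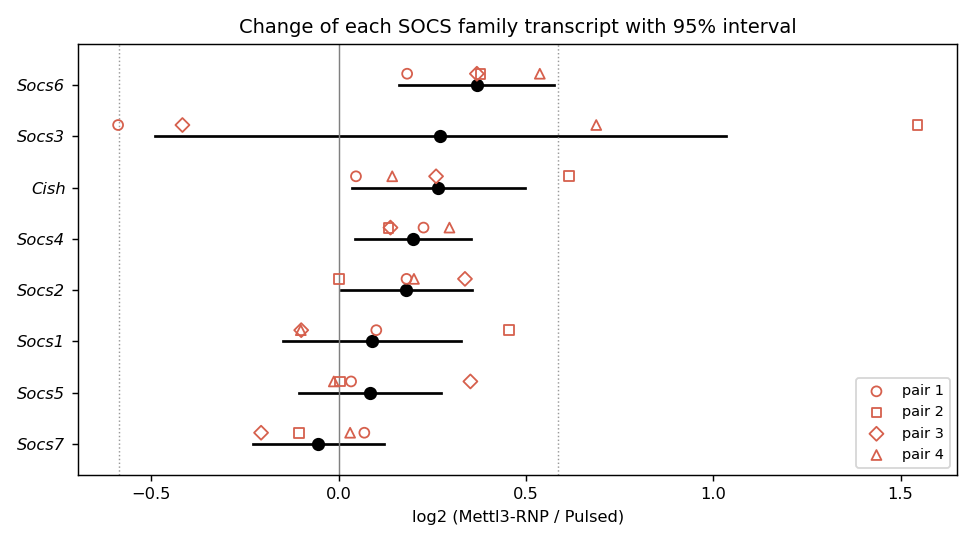
Log2 ratio of Mettl3-RNP to Pulsed for the 8 SOCS family transcripts (x axis), with the edgeR estimate as a black point, its 95% interval as a bar, the 4 paired differences as open symbols and dotted lines at a fold of 1.5 in either direction. The intervals of Socs6, Cish, Socs4 and Socs2 lie above 0, that of Socs3 runs from -0.49 to 1.03, and pair 2 is the highest for Socs3 at 1.55 and Cish at 0.62.

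Cish and Socs2, both classical STAT5 targets, were among the members higher in every pair. Cish (chromosome 9, 107173225 to 107179983, plus strand, GRCm39), which binds the shared beta chain of the IL-3 receptor, was at 528, 852, 1393 and 358 CPM in Mettl3-RNP 1 to 4 and at 512, 556, 1163 and 324 CPM in Pulsed 1 to 4. Replicate 3 was the highest and replicate 4 the lowest in both groups, and the spread between replicates was far wider than any difference within a pair. Its log2 fold change was 0.27 (SE 0.0998, 95% interval 0.04 to 0.50, adjusted p 0.165, edgeR), which is a fold of 1.20 (1.03 to 1.41). The paired differences were 0.05, 0.62, 0.26 and 0.14, and without replicate 2 the estimate was 0.14. The difference of pair 2 exceeded the sum of the other 3.

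Socs2 (chromosome 10, 95219523 to 95253929, minus strand), best known as the brake on growth hormone signalling, was at 156, 106, 157 and 115 CPM in Mettl3-RNP 1 to 4 and at 137, 106, 124 and 100.4 CPM in Pulsed 1 to 4. Libraries of a group differed little, with a highest to lowest ratio of 1.48 in Mettl3-RNP and 1.37 in Pulsed cells. The log2 fold change was 0.18 (SE 0.0755, 95% interval 0.0061 to 0.36, adjusted p 0.210, edgeR), a fold of 1.13 (1.00 to 1.28). Pair 2 showed almost no difference, at 0.0022, and the others showed 0.18, 0.34 and 0.20.

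Socs1 and Socs3, the members that can block JAK kinases directly, did not move in one direction. Socs1 (chromosome 16, 10600104 to 10603875, minus strand), the brake on interferon and gamma chain cytokine signalling, was at 215, 228, 199 and 102 CPM in Mettl3-RNP 1 to 4 and at 201, 167, 213 and 109 CPM in Pulsed 1 to 4. Replicate 4 was the lowest in both groups. The log2 fold change was 0.09 (SE 0.102, 95% interval -0.15 to 0.33, adjusted p 0.668, edgeR), with 2 of 4 pairs higher, and it was -0.040 without replicate 2. The difference was smaller than the spread between pairs, and its interval reached a fold of 1.25.

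Socs3 (chromosome 11, 117856905 to 117860898, minus strand), which acts on the gp130 receptor of the IL-6 family, was the least precisely measured member. It was at 24.6, 41.0, 55.5 and 10.97 CPM in Mettl3-RNP 1 to 4 and at 36.9, 14.0, 74.1 and 6.79 CPM in Pulsed 1 to 4. The group means were nearly equal, at 33.0 ± 19.4 and 33.0 ± 30.3 CPM (SD, n = 4), with the highest and lowest Pulsed libraries 10.9 times apart. The pairs went in opposite directions, at -0.59 and -0.42 in pairs 1 and 3 and at 1.55 and 0.69 in pairs 2 and 4. The log2 fold change of 0.27 (SE 0.329, 95% interval -0.49 to 1.03, adjusted p 0.688, edgeR) became -0.16 without replicate 2. Folds from 0.712 to 2.05 lay within its interval, so a change of 1.5 times was not detectable for this transcript with 4 pairs.

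**Figure D2:**
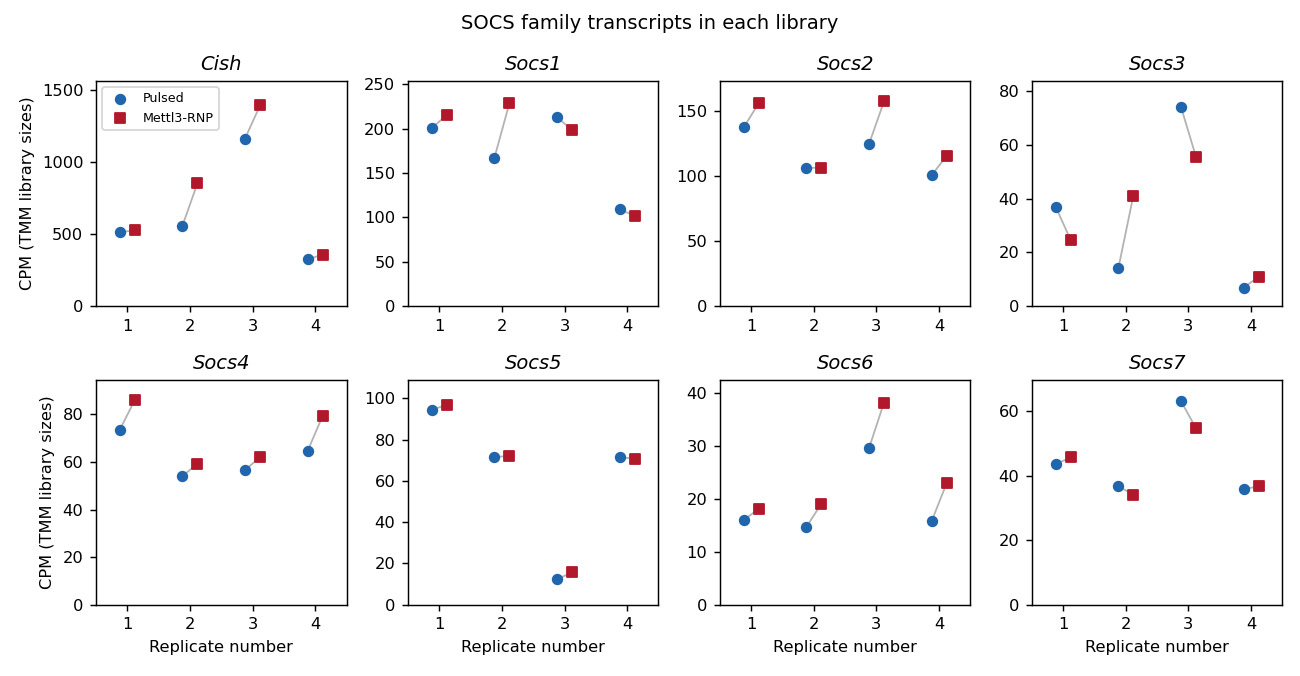
CPM on TMM library sizes (y axes, from 0, a separate scale for each gene) of the 8 SOCS family transcripts in Pulsed (blue circles) and Mettl3-RNP (red squares) libraries by replicate number (x axis), with a line joining each pair. Cish, Socs3, Socs6 and Socs7 are highest and Socs5 is lowest in replicate 3 of both groups, while the 2 libraries of a pair mostly lie close together.

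Socs4 and Socs5 encode a pair of related proteins with long N-terminal parts that have been linked to the EGF receptor. Their transcripts differed from each other in the spread of CPM between replicates. Socs4 (chromosome 14, 47514368 to 47533559, plus strand) was at 86.0, 59.3, 62.2 and 79.5 CPM in Mettl3-RNP 1 to 4 and at 73.5, 54.1, 56.5 and 64.7 CPM in Pulsed 1 to 4. In both groups replicate 1 was the highest and replicate 2 the lowest. The pairs were alike, at 0.23, 0.13, 0.14 and 0.30, and the log2 fold change was 0.20 (SE 0.0667, 95% interval 0.04 to 0.35, adjusted p 0.129, edgeR), a fold of 1.15 (1.03 to 1.28).

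Socs5 (chromosome 17, 87414674 to 87445267, plus strand) was at 96.7, 71.9, 15.7 and 70.8 CPM in Mettl3-RNP 1 to 4 and at 94.5, 71.7, 12.3 and 71.4 CPM in Pulsed 1 to 4. Outside replicate 3 the libraries of a pair were nearly equal, with differences of 0.03, 0.0032 and -0.01, while pair 3 differed by 0.35 at a level several times lower. The log2 fold change was 0.08 (SE 0.0815, 95% interval -0.10 to 0.27, adjusted p 0.604, edgeR), and it was 0.0055 without replicate 3.

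Socs6, which binds the stem cell factor receptor Kit and proteins of insulin signalling, had the largest fitted change of the family. Its transcript (chromosome 18, minus strand) was at 18.1, 19.1, 38.1 and 22.9 CPM in Mettl3-RNP 1 to 4 and at 16.0, 14.7, 29.5 and 15.8 CPM in Pulsed 1 to 4. Mettl3-RNP libraries lay above their own Pulsed library in each pair, by 0.18, 0.38, 0.37 and 0.54, but Pulsed 3 lay above 3 of the 4 Mettl3-RNP libraries. The log2 fold change was 0.37 (SE 0.0893, 95% interval 0.16 to 0.57, unadjusted p 0.00344 and adjusted p 0.0649, edgeR), a fold of 1.29 (1.12 to 1.49). It was from 0.32 to 0.39 when any 1 pair was left out, and the DESeq2 adjusted p with all pairs was 0.0178 at a log2 fold change of 0.38.

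Socs7 (chromosome 11, 97253032 to 97289368, plus strand), which binds insulin receptor substrates, was the member with the lowest fold change. It was at 45.7, 34.1, 54.7 and 36.7 CPM in Mettl3-RNP 1 to 4 and at 43.5, 36.7, 63.1 and 35.9 CPM in Pulsed 1 to 4. Replicate 3 was again the highest in both groups. The log2 fold change was -0.05 (SE 0.0758, 95% interval -0.23 to 0.12, adjusted p 0.734, edgeR), with 2 of 4 pairs higher, and folds below 0.853 or above 1.09 lay outside its interval.

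The counts behind these values ranged from 248 for Socs3 in Pulsed 4 to 46791 for Cish in Pulsed 3, so counting error was small beside the differences between replicates. Exons of Cish, Socs1, Socs2, Socs3, Socs5 and Socs6 overlap noncoding genes on the opposite strand, and whether the counting used strand is not given. Where such a gene had counts of its own, it reached at most 2.02% of the level of the member, for Socs3, 1.31% for Socs2, 0.603% for Socs1 and 0.209% for Cish.

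The 8 members differed more between cultures than between groups. All 8 had an adjusted p of 0.05 or less for the replicate number in the same edgeR model, as did 53.9% of tested genes. In Pulsed libraries the SD of log2 CPM was 1.51 for Socs3 and 1.35 for Socs5, above those of 96.9% and 94.8% of tested genes. The SD was 0.76 for Cish, 0.47 for Socs6, 0.44 for Socs1 and 0.38 for Socs7, and lowest for Socs2 (0.21) and Socs4 (0.20), which lay below more than 4 in 5 of the tested genes. The members thus ran from steady transcripts to some of the most variable ones in these cultures.

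Replicate 3 set much of this spread, and replicate 4 was the lowest in both groups for Cish, Socs1 and Socs3. On the log2 scale Cish was higher in replicate 3 than the mean of the other replicates by 1.36 in Mettl3-RNP and 1.36 in Pulsed libraries, Socs3 by 1.31 and 2.28, and Socs6 by 0.93 and 0.93. Socs5 went the other way, with differences of -2.32 in Mettl3-RNP and -2.67 in Pulsed libraries. The other members moved less, with Socs7 at 0.51 and 0.71, Socs1 at 0.22 and 0.47, Socs2 at 0.34 and 0.13 and Socs4 at -0.25 and -0.17. Immediate early genes, which rise within minutes of cell activation, were higher in replicate 3 in both groups for 16 of 16, with medians of 4.11 and 4.07, as Cish, Socs1, Socs2, Socs3, Socs6 and Socs7 were, while Socs4 and Socs5 were lower. Of all tested genes 42.6% were higher there in both groups. The medians of all tested genes were 0.016 and 0.081. Immediate early genes summed to 22430 CPM in Mettl3-RNP 3 and 19129 CPM in Pulsed 3. Their sums were lowest in replicate 4, at 701 CPM in Mettl3-RNP 4 and 559 CPM in Pulsed 4. The mean of the other replicates includes replicate 4, so its low levels add to the differences given for replicate 3. The part of cell activation in the levels of Cish, Socs3, Socs5 and Socs6 was not tested. Immediate early genes themselves did not pass between the groups (0 of 16 in edgeR). At an unadjusted p of 0.05 there were 3, near the 22.5% of all tested genes. In Mettl3-RNP cells 14 of 16 were fitted higher, against 49.8% of all tested genes, with a median log2 fold change of 0.23.

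The genes whose levels followed a member most closely over the 8 libraries were found as those with the smallest root mean square difference of centred log2 CPM among 8298 protein-coding genes. For Socs3 these were Zswim6 (0.361) and Jun (0.376), an immediate early gene, where the median gene differed by 1.15. For Socs5 they were Aplf (0.117) and Dvl2 (0.139), with a median of 1.16. For Cish they were Irf2bp2 (0.157) and Lilrb4b (0.189), with a median of 0.731. Setd2 (0.0898) and Ddx24 (0.109) lay closest to Socs6, with a median of 0.494. These distances grow with the spread of the member itself, so they do not rank the 4 members.

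Levels of different genes were compared per length, as CPM per kb of merged exons. Cish was the most abundant member in Pulsed cells at 99.5 ± 56.7 CPM per kb (SD, n = 4), which was 51.8% of the summed family, followed by Socs1 at 50.9 ± 13.7 with 26.5%. The next 4 members lay close together, with Socs3 at 9.26 ± 8.51, Socs4 at 9.02 ± 1.28, Socs5 at 8.42 ± 4.74 and Socs2 at 7.67 ± 1.11 CPM per kb. Socs7 followed at 5.73 ± 1.62, and Socs6 was the lowest at 1.60 ± 0.593 CPM per kb, 0.831% of the family. Of neighbours in this order, Socs1 and Socs3 and Socs7 and Socs6 had ranges that did not overlap. Within libraries, Cish also exceeded Socs1 and Socs2 exceeded Socs7 in 4 of 4 libraries of both groups, while the order of Socs3, Socs4, Socs5 and Socs2 differed between libraries. Cish and Socs1 thus made up most of the family on this length. In Mettl3-RNP cells Cish was at 122 ± 71.0 and Socs1 at 55.0 ± 17.0 CPM per kb, and Socs6 remained the lowest at 2.07 ± 0.781.

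The length chosen changed the rank of Socs2. Its merged exons span 15258 bases, but its canonical transcript has 2540. Per kb of canonical transcript Socs2 was at 46.1 ± 6.67 CPM per kb in Pulsed cells (SD, n = 4), next to Socs1 at 52.8 ± 14.2 and apart from Socs5 at 13.1 ± 7.38. Cish stood higher still on this length, at 175 ± 99.8 CPM per kb, and its range no longer overlapped that of Socs1. The order of the remaining members was less settled, with Socs3 at 12.4 ± 11.4 CPM per kb, just below Socs5.

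**Figure D3:**
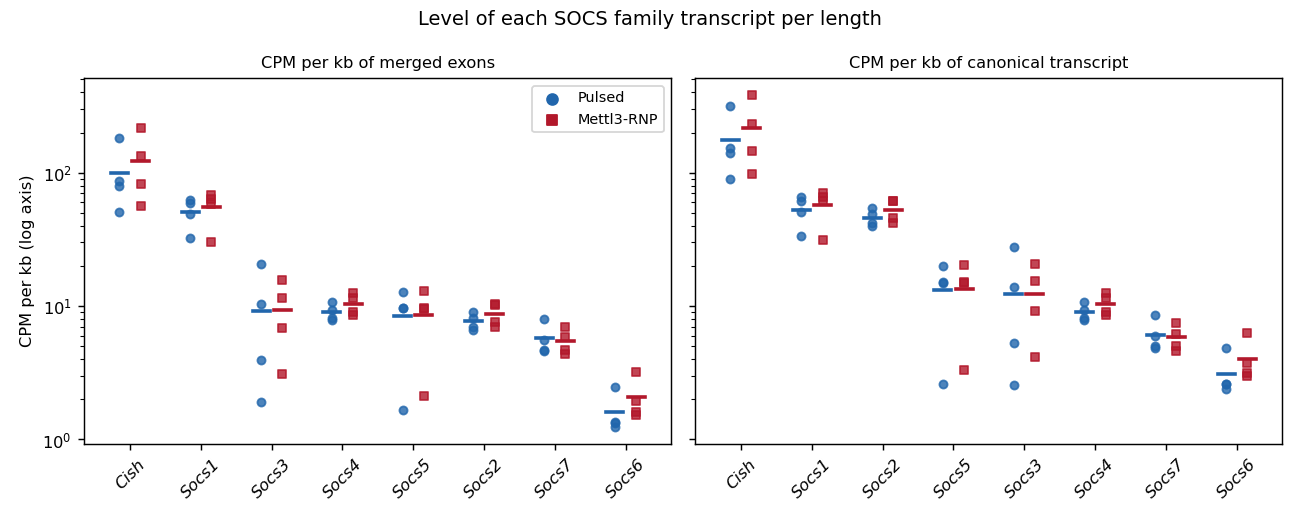
CPM per kb (y axis, log scale) of the 8 SOCS family transcripts in Pulsed (blue circles) and Mettl3-RNP (red squares) libraries, with bars at the means, by merged exons (left) and canonical transcript (right). Cish is the highest and Socs6 the lowest on both lengths, and Socs2 moves from 7.67 CPM per kb of merged exons to 46.1 CPM per kb of canonical transcript in Pulsed cells.

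The pathway around the family was described by counts of genes past an adjusted p of 0.05 in the same edgeR fit. Beside the counts below, 22.5% of all tested genes had an unadjusted p of 0.05 or less in either direction in edgeR, and 9.7% passed in DESeq2 and 30.5% after removeBatchEffect at the adjusted threshold. Of 24 tested cytokine and growth factor receptors, 1 was higher and 1 lower, 12 had an unadjusted p of 0.05 or less and 18 were fitted higher, with a median log2 fold change of 0.23. Csf2rb2, a beta chain that serves IL-3 alone, was at 11270, 10417, 10549 and 10182 CPM in Mettl3-RNP 1 to 4 and at 8858, 8159, 8731 and 8518 CPM in Pulsed 1 to 4, and rose by 0.31 on the log2 scale (SE 0.0661, adjusted p 0.0486). Its near copy Csf2rb, the beta chain shared by IL-3, IL-5 and GM-CSF, was at 5454 ± 962 in Mettl3-RNP and 4639 ± 409 CPM (SD, n = 4) in Pulsed cells (0.22, adjusted p 0.150). The copies resemble each other, so reads may have been divided between them with error. The alpha chain Il3ra was at 98.3 ± 11.8 and 88.0 ± 20.1 CPM (0.18, adjusted p 0.290). Crlf2, part of the TSLP receptor, fell by 0.53 (adjusted p 0.0326), from 181 ± 47.3 to 128 ± 42.3 CPM. When each pair was left out in turn, 1 receptor passed without replicate 4 and 0 passed in the other fits, where fewer of all tested genes passed as well (2.18% without replicate 1, 0.174% without replicate 2, 2.57% without replicate 3 and 2.23% without replicate 4).

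The transducers between these receptors and the SOCS genes showed no call. Of 11 JAK and STAT genes 0 passed in edgeR, 0 had an unadjusted p of 0.05 or less, and the median log2 fold change was 0.02, while DESeq2 also called 0 and removeBatchEffect with limma-trend called 1. Jak1 was at 360 ± 42.1 in Mettl3-RNP and 355 ± 51.6 CPM in Pulsed cells and Jak2 at 164 ± 33.0 and 176 ± 18.2 CPM. Jak3 was at 31.3 ± 4.54 and 31.2 ± 5.96 CPM. Of the STAT5 genes, which transmit the IL-3 signal, Stat5a was at 160 ± 78.4 and 151 ± 72.3 CPM (log2 fold change 0.08, SE 0.0667) and Stat5b at 178 ± 60.5 and 169 ± 58.0 CPM (0.08, SE 0.0628). Stat3 was at 182 ± 61.7 and 198 ± 61.6 CPM (-0.13, adjusted p 0.278) and was lower in all 4 pairs. The levels of Stat2, Stat4 and Stat6 differed by 0.19, 0.02 and 0.04 on the log2 scale. The 11 adjusted p ranged from 0.278 to 0.936.

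Of 18 other inhibitors of the pathway, such as phosphatases and adapters, 0 passed in edgeR, with a median of 0.07. At an unadjusted p of 0.05 there were 4, near the 22.5% of all tested genes, and DESeq2 called 3, against 9.7% of all tested genes. The 4 were Ptpn6, fitted at -0.45 and lower in 4 of 4 pairs, and Dok2 (0.42), Sh2b3 (0.36) and Pias3 (0.22), each higher in 4 of 4 pairs. The most abundant were the phosphatases Inpp5d, at 836 ± 155 in Mettl3-RNP and 742 ± 112 CPM in Pulsed cells (0.16, adjusted p 0.228), and Ptpn2, at 401 ± 75.3 and 484 ± 149 CPM (-0.24, adjusted p 0.252). Of 11 genes for the elongin-cullin ligase that the SOCS box recruits, 0 passed, with a median of -0.03, and DESeq2 called 0. At an unadjusted p of 0.05 there were 3, near the share of all tested genes. Here Ube2m, at 87.3 ± 21.3 and 97.0 ± 22.3 CPM, and Nedd8, at 91.6 ± 18.4 and 96.9 ± 14.0 CPM, were the most abundant.

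Of 15 other tested proteins with a SOCS box, 2 were higher and 0 lower, with a median of 0.15. Asb8, which joins the ligase through its SOCS box and carries ankyrin repeats that bind substrates, was at 21.9 ± 2.55 CPM in Pulsed and 35.6 ± 4.85 CPM in Mettl3-RNP cells (SD, n = 4), a rise of 0.70 on the log2 scale (SE 0.0788, adjusted p 0.0107, edgeR). Spsb2, a SPRY domain protein that targets inducible nitric oxide synthase, rose from 18.2 ± 9.97 to 29.6 ± 11.6 CPM (0.83, SE 0.154, adjusted p 0.0328). Asb8 and Spsb2 were both higher in 4 of 4 pairs, and their changes were larger than that of any of the 8 SOCS genes. Without replicate 2, a fit that called 26 genes in all, their log2 fold changes were 0.69 and 0.87 (adjusted p 0.0648 and 0.117). The most abundant were Wsb1, at 71.4 ± 25.6 CPM in Mettl3-RNP and 64.5 ± 19.1 CPM in Pulsed cells, and Asb1, at 51.6 ± 12.7 and 52.0 ± 14.7 CPM in the same order. Neither passed.

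Other targets of the STATs did not move as one group. Of 14 STAT5 targets outside the family, 0 were higher and 1 was lower, and 5 were fitted higher with a median of -0.07. At an unadjusted p of 0.05 there were 5 in edgeR (22.5% of all tested genes), and DESeq2 called 5 (9.7%). Il2ra, the alpha chain of the IL-2 receptor, was at 36.9, 33.9, 10.9 and 25.2 CPM in Mettl3-RNP 1 to 4 and at 115, 88.7, 55.0 and 32.8 CPM in Pulsed 1 to 4, and fell by 1.43 on the log2 scale (SE 0.261, adjusted p 0.0324). Cish and Socs2, which share STAT5 as an inducer with Il2ra, thus had fitted changes of the opposite sign to that of Il2ra. Like Cish and Socs2, Mcl1 (0.30, adjusted p 0.0670, edgeR) and Bcl2l1 (0.27, adjusted p 0.0959) of this list were higher in 4 of 4 pairs without passing. Ccnd2 (-0.32, adjusted p 0.119) and Lif (-0.34, adjusted p 0.139) were fitted lower. Gata2 (2423 ± 394 and 2251 ± 586 CPM) and Pim1 (843 ± 160 and 913 ± 132 CPM), the most abundant of this list, had adjusted p of 0.457 and 0.387. Il2ra was at -1.39 (adjusted p 0.0508) without replicate 1 and at -1.45 (adjusted p 0.116) without replicate 2, fits that called 2.18% and 0.174% of all tested genes.

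Of 7 STAT3 targets outside the family 0 passed, 4 had an unadjusted p of 0.05 or less and the median was 0.11, while DESeq2 called 4. Junb (1514 ± 1821 and 1428 ± 1600 CPM), like Socs3, varied more between replicates than between groups. The most abundant after Junb was Hif1a (145 ± 9.87 and 173 ± 23.4 CPM), fitted at -0.25 (adjusted p 0.0986). The 3 others with an unadjusted p of 0.05 or less were fitted higher, Cebpd at 0.96, Bcl3 at 0.77 and Cebpb at 0.67 (adjusted p 0.0515, 0.0918 and 0.0953), and 5 of the 7 were fitted higher. The naming of these 3 followed a look at their values.

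**Figure D4:**
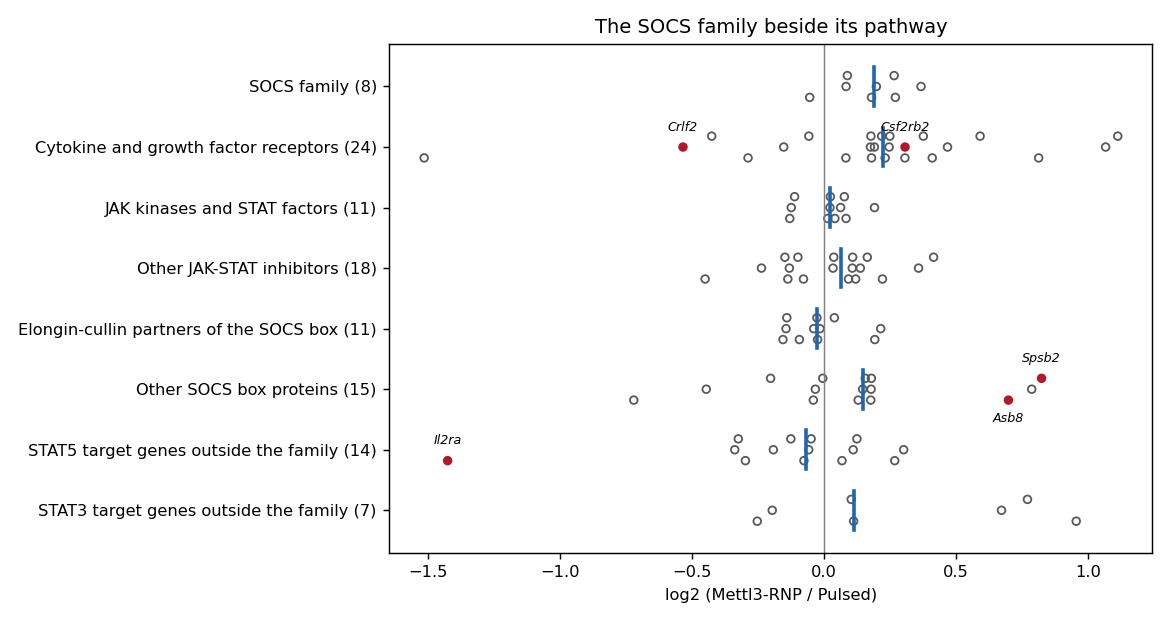
Log2 ratio of Mettl3-RNP to Pulsed (x axis) for each tested gene of the SOCS family and 7 lists of its pathway (rows, with the number of genes), where filled red points passed an adjusted p of 0.05 in edgeR and blue bars are medians. Named points are Csf2rb2, Crlf2, Asb8, Spsb2 and Il2ra, and the median of the SOCS family is 0.19 beside 0.02 for the JAK and STAT genes.

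Since Mettl3 methylates adenosines mostly within short motifs of which GGACT is a frequent form, the letters were counted on the sense strand of the canonical transcripts. Socs7 held 9, Cish 5, Socs2, Socs5 and Socs6 4 each, Socs3 3, and Socs1 and Socs4 2 each. Per kb, Socs2 (1.58) and Cish (1.37) were the densest and Socs4 (0.290) the sparsest member, where the median of 12056 transcripts was 1.04. Of the members higher in every pair, Socs2 and Cish lay above this median. Socs6, at 0.657 per kb, and Socs4, at the 8.29th percentile of transcripts, lay below it. In the 3′ untranslated regions Socs7 held 5, Cish 3, Socs2 0 and each other member 1. Whether such matches bear on the fitted changes was not tested. Methylation itself was not analysed here, and a match is not a methylated site.

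The pentamer ATTTA, the core of AU-rich elements that mark unstable mRNAs, was counted in the 3′ untranslated regions. Socs4 held 17, Socs6 10, Socs7 5, Socs3 and Socs5 4 each, Cish 3, Socs2 2 and Socs1 0. Per kb this was 3.28 for Socs4, 2.71 for Socs3 and 2.49 for Socs6, against a median of 1.35 over 11836 transcripts. Socs4 and Socs3, with the densest matches, were the least and the most variable member between Pulsed libraries. Decay of the transcripts was not measured here, and whether the matches bear on that spread was not tested.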

How the data were processed

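RNA-seq of poly-A RNA was measured in 8 libraries, 4 per group as labelled. According to the labels and methods, the authors checked reads with FastQC 0.11.9, aligned them to GRCm39 with HISAT2 2.2.1 and counted them per gene with featureCounts 2.0.1. The deposited values are whole-number counts with no normalization. The study's batch correction is not visible in them, and strand and multimapping settings are not given in the sources used here. GENCODE mouse annotation named 98.7% of IDs. Replicates of a group differed by more than sampling noise (the lowest chi-square per degree of freedom was 59.8), and intervals cover the spread between these samples, which may be partly technical.

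Genes were kept by filterByExpr (about 10 counts in 4 libraries), scaled by TMM and tested with edgeR 4.0.16 (quasi-likelihood, R 4.3.3), with Benjamini-Hochberg adjustment over all 14942 genes and a threshold of 0.05. CPM used TMM library sizes, and log2 CPM a prior count of 2. The replicate number was a block because 4 mice are named for 8 samples, which makes a number an inferred mouse. Deviations from the group means correlated at 0.825, 0.489, 0.879 and 0.765 in pairs 1 to 4 over 11985 genes, and at most at 0.183 between different numbers. An exact sign-flip permutation test of 4 pairs cannot go below a two-sided p of 0.125 and was not used. The fitting code was tested on simulated data.

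Named are the 8 members, Mettl3, the genes past the threshold (at most 5) and the 2 of highest mean CPM in each pathway list, the Jak, Stat and IL-3 receptor genes, and the 2 genes of closest pattern (mean of at least 10 CPM) for the 4 most variable members. Tyk2 is given in counts only, and the marker lists as sums and as names past the threshold, except Cd68 and Cd200r3, whose values were known when they were chosen. The values of 1 gene and 1 list are not reported here, although the gene is included in the counts. Members, lists and rule were chosen with earlier results of these data known. The test of the replicate number and the canonical length were added after values had been seen. Alternatives were no block, other scalings and filters, DESeq2 1.42.0, limma-voom, removeBatchEffect with limma-trend (limma 3.58.1), other lengths and leaving out each pair.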

Additional observations from a re-analysis of the deposited data

Results flagged for a closer look

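The CPM of the 8 members and Mettl3, the paired differences of the members, the library totals and the TMM factors were searched, 30 sets of 4 values in all, for a single value that stood away from the rest. Chance alone would give about 1.5 such sets, since roughly 1 in 20 is picked out, and 4 were found, each with replicate 3 as the distant value. Socs6 was at 29.5 CPM in Pulsed 3, against 14.7 to 16.0 CPM in the other Pulsed libraries. Mettl3 was at 11.2 CPM in Pulsed 3, against 24.5 to 26.5 CPM. The paired difference of Socs5 was 0.35 in pair 3 and at most 0.03 in the others. The TMM factor of Mettl3-RNP 3 was 0.917. Socs5 in replicate 3, at 15.7 and 12.3 CPM, was not set apart by this rule in either group, since the other replicates ranged from 70.8 to 96.7 CPM.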

How the results depend on the processing

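No SOCS gene passed with no replicate block, where Mettl3 was at -1.31 (adjusted p 0.744) and receptors, other SOCS box proteins and STAT5 targets had 0 calls each, as did all 14942 genes (579 at an unadjusted p of 0.05). Members called numbered 1 with DESeq2 (Socs6, 0.38, adjusted p 0.0178) and 4 with removeBatchEffect (Cish 0.27, Socs2 0.18, Socs4 0.20 and Socs6 0.37, adjusted p 0.0294, 0.0201, 0.00387 and 0.00171), which by construction leaves more degrees of freedom. The latter called 13 receptors, 1 JAK or STAT gene, 8 inhibitors, 5 ligase genes, 6 SOCS box genes, 5 STAT5 and 4 STAT3 targets (30.5% of all genes). DESeq2 called 5 receptors, 3 inhibitors, 3 SOCS box genes, 5 STAT5 and 4 STAT3 targets (9.7% of all genes). Every gene with at least 1 count gave 4 receptors, 1 inhibitor, 3 SOCS box genes and 3 STAT3 targets (2.95% of all genes). DESeq2 size factors gave 1 receptor and 1 STAT3 target (3.85%). Without replicate 2, Socs1 (-0.040) and Socs3 (-0.16) changed sign. Leaving out each pair gave 0 to 1 receptors, 0 to 2 SOCS box genes, 0 to 1 STAT5 and 0 to 1 STAT3 targets (0.174% of all genes without replicate 2 and 2.18% to 2.57% otherwise, against 3.74% with all pairs). Log2 fold changes then ranged from 0.14 to 0.32 for Cish, -0.040 to 0.16 for Socs1, 0.13 to 0.23 for Socs2, -0.16 to 0.56 for Socs3, 0.15 to 0.22 for Socs4, 0.0055 to 0.13 for Socs5, 0.32 to 0.39 for Socs6, -0.13 to -0.0042 for Socs7 and -1.42 to -1.22 for Mettl3. Of the 8 level ranks, 4 held with the longest or canonical transcript, 6 with library size alone and 5 to 8 without 1 replicate, and the number of members above the 90th percentile of spread was 1 to 2, with 1 without replicate 3. The cause of these shifts was not tested. Of 99 alternative log2 fold changes of the members and Mettl3, 91 kept sign and side of the threshold, 5 newly passed, 1 no longer passed and 2 changed sign.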
